A study of Mus musculus with 6 samples.

Results

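The disaccharidases and sugar transporters of the gut are a set of 9 genes, measured here in mouse embryonic intestine (E14.5), a stage that precedes the villi. The members are the brush border glycosidase genes Lct, Sis, Mgam and Treh, the sodium-glucose cotransporter gene Slc5a1, and Slc2a1, Slc2a2, Slc2a3 and Slc2a5 of the facilitative hexose transporter family. They were taken by name: all 9 were found among 19938 genes measured, each by 1 row of the array table that carried its symbol alone. With Klf5 deleted, Slc5a1, Mgam and Slc2a1 fell, Slc2a3 rose, and Lct, Sis, Treh, Slc2a2 and Slc2a5 did not pass the test.

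The study compared Klf5-deleted embryos, with the genotype label Klf5D/D, with control embryos labelled Klf5wt/wtShhEGFP/Cre+, which kept Klf5 and carried an EGFP-Cre allele at the Shh gene. That allele drives Cre from the Shh promoter, which is active in gut epithelium, and occupies 1 copy of Shh. The label of the deleted embryos does not name the Cre allele, and whether they carried it was not given. The strain of both groups was mixed, in part C57Bl/6. There were 3 arrays per group, each with RNA from a pool of 2 intestines, dissected about 1.5 cm anterior to the cecum. KLF5, the product of Klf5, is a zinc-finger transcription factor of the Krüppel-like family, made in epithelia. The question was which genes depend on it before villus formation.

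Dietary sugars are absorbed as single hexoses. Brush border glycosidases (lactase, sucrase-isomaltase, maltase-glucoamylase and trehalase) cut disaccharides and starch fragments at the enterocyte surface. The sodium-glucose cotransporter SGLT1 carries glucose and galactose, and GLUT5 carries fructose, across the apical membrane, and GLUT2 lets hexoses out on the basolateral side. GLUT1 and GLUT3 are high-affinity glucose transporters that many embryonic tissues use to take up glucose for themselves.

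Klf5 read between 10.24 and 10.49 on the log2 scale in the deleted arrays and between 11.55 and 11.77 in the controls, and fell by 1.33 (SE 0.08, adjusted p = 9.62e-05 with limma). Intestinal identity was present in the controls, where the enterocyte markers had a mean log2 signal of 10.1 to 10.4 per array. All 7 of these markers (Vil1, Fabp1, Fabp2, Apoa1, Apoa4, Alpi and Anpep) fell, with a median log2 fold change of −1.46, and 13 of 14 general epithelial markers fell, with a median of −0.81. In bulk tissue, fewer epithelial cells and less RNA per cell cannot be told apart. The pools also differed in sex. Xist, which females use for X inactivation, read 5.89 to 6.47 in the deleted arrays and 11.93 to 12.61 in the controls. The male share of each pool was estimated from 3 Y-linked genes on a scale set by these same arrays. The mean of the deleted pools was taken as all male, and the lowest array, control replicate 1, as 0%. On this scale the deleted pools lay at 95.2% to 103%, and control replicates 2 and 3 at 46.7% and 41.5%.

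Over all 19938 genes, 8.58% passed limma's test (Benjamini-Hochberg adjusted p under 0.05) in the downward direction and 8.95% in the upward direction. Of the 9 members, 3 passed as lower and 1 as higher. Their median log2 fold change was 0.04, against 0.02 over all genes. The groups did not overlap for 5 of the 9 members, and for 36% of all genes. With 3 arrays per group, the exact two-sided permutation test cannot go below p = 0.1, and it gave 0.1 for each of the 5 members whose groups did not overlap.

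**Figure D1:**
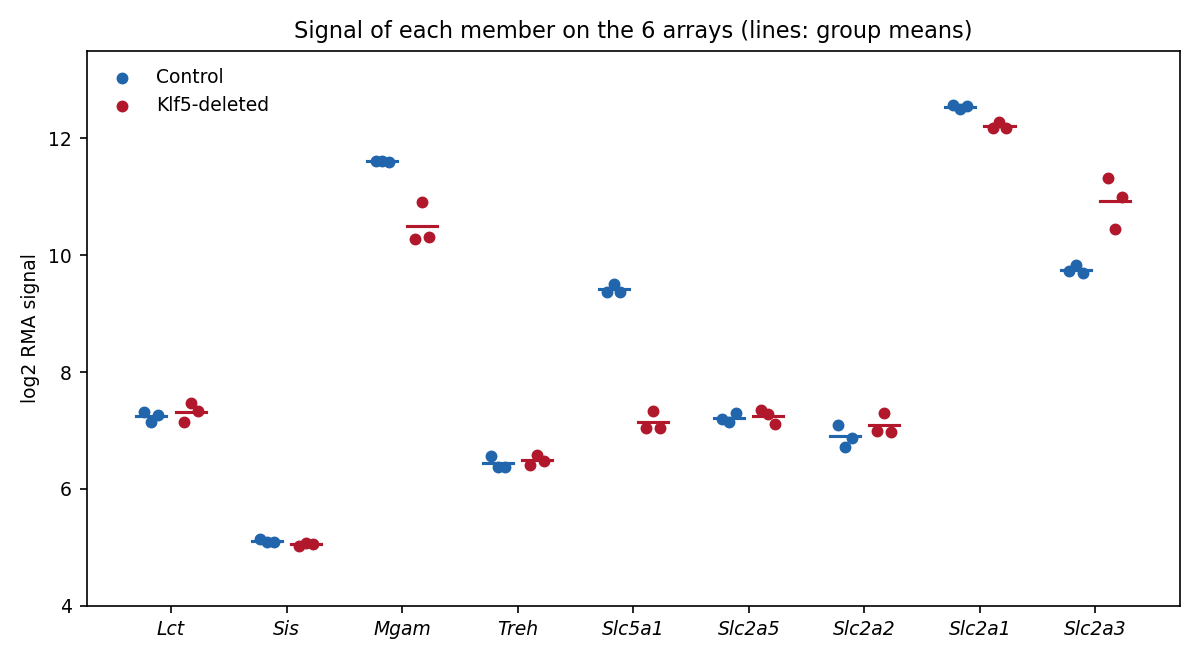
The log2 RMA signal (vertical axis) of each of the 9 members on the 3 control arrays (blue) and the 3 Klf5-deleted arrays (red), with a line at each group mean. Slc5a1, Mgam and Slc2a1 lie lower and Slc2a3 higher in the deleted arrays, and the other 5 members lie between 5.03 and 7.46 on all 6 arrays.

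Slc5a1 encodes SGLT1, the apical carrier that couples the uptake of glucose to sodium. It read 9.37, 9.50 and 9.38 in control replicates 1 to 3 and 7.03, 7.34 and 7.04 in Klf5-deleted replicates 1 to 3. Every deleted array was lower than every control, and the gap between the groups (2.03) was wider than the range within either (0.13 in the controls and 0.30 in the deleted arrays). The log2 fold change was −2.28 (SE 0.09, n = 3 per group, limma adjusted p = 1.42e-05), the 32nd largest fall of 19938 genes. This left 20.6% of the control signal (95% interval 17.8% to 23.8%). The olfactory receptor genes on the array, 1027 genes that the gut is not known to use, gave a guide to dim signal: their control means had a median of 5.18 and a 95th percentile of 6.86. Probes differ in brightness, so this is a guide only. The deleted arrays were near the upper end of it for Slc5a1, and folds that end near dim signal are understated on arrays. Adding each pool's male share to the fit raised the median SE over genes 2.62 times. Male share and deletion ran together in these pools, so a call lost in that fit cannot tell sex from deletion. In that fit Slc5a1 kept its call (−2.43, SE 0.24, adjusted p = 0.0184).

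The RefSeq promoter table (build GRCm38.p6) held 8 of the 9 members, and the 250 bases upstream of the start site are shown for Slc5a1 because it had the largest change of the set. Capitals mark matches, on either strand, to the letters CACCC (the box that Krüppel-like factors bind), TTTAT (a core of CDX sites), GATAA (a core of GATA sites), GTTAA (one arm of an HNF1 site, for which GTTAAC matches on both strands) and ACGTG (a core of hypoxia factor sites, for which CACGTG matches on both strands). Over all 32851 windows of the same length, 52% held CACCC, 37.3% TTTAT, 22.6% GATAA, 21.7% GTTAA and 16.6% ACGTG. The stretch lies at chr5:33103969-33104218 on the + strand.
Slc5a1: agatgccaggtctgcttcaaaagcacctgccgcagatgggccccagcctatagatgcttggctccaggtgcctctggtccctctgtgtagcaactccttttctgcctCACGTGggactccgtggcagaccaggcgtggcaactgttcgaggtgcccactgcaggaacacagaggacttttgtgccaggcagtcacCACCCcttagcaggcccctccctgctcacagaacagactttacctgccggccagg
It held 1 CACCC match, 55 to 51 bases before the start site (positions −55 to −51), and a CACGTG that gave 2 matches of ACGTG, and no match of the other 3 motifs. A match is a run of letters and not a binding site.

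Mgam encodes maltase-glucoamylase, which releases glucose from maltose and starch fragments. Among the 4 glycosidase genes it was the only one that passed the test. Its signal was 11.62, 11.62 and 11.60 in control replicates 1 to 3 and 10.27, 10.91 and 10.32 in the deleted replicates 1 to 3. The controls lay within 0.02 of each other, while the deleted arrays spread over 0.64, with replicate 2 closest to the controls. Mgam fell by 1.12 (SE 0.16, n = 3 per group, limma adjusted p = 0.00327), which left 46.1% of the control signal (95% interval 35.8% to 59.4%), the 191st largest fall. With the male share as a covariate its change was −1.16 (SE 0.43, adjusted p = 0.308 with limma), and the call was lost.

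The other 3 glycosidase genes did not pass. Lct, the gene of lactase, the milk sugar enzyme, read 7.32, 7.14 and 7.26 in the controls and 7.14, 7.46 and 7.34 in the deleted arrays. Its groups overlapped, and the difference was 0.07 (95% interval −0.14 to 0.28, adjusted p = 0.667 with limma). Sis, the gene of sucrase-isomaltase, read 5.14, 5.09 and 5.08 in the controls and 5.03, 5.07 and 5.05 in the deleted arrays. Its groups did not overlap, but the gap was 0.01 and the difference of −0.05 (95% interval −0.15 to 0.05, adjusted p = 0.47) did not pass. Treh, the gene of trehalase, read 6.56, 6.38 and 6.38 in the controls and 6.41, 6.58 and 6.47 in the deleted arrays, a difference of 0.05 (95% interval −0.11 to 0.21, adjusted p = 0.722). The Sis and Treh signals were below the 95th percentile of the olfactory receptor genes on all 6 arrays, so these intervals bound the change in array signal and do not bound the change of a transcript near or below detection. Lct had a control mean of 7.24, not far above that percentile (6.86), so a change of its transcript may be understated.

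The upstream sequences of Mgam and Sis are shown together because the 2 genes encode related enzymes of starch digestion. No response of Sis can be read at its dim signal. That of Mgam lies at chr6:40628581-40628830 on the + strand and that of Sis at chr3:72967864-72968113 on the − strand, both printed in the direction of transcription.
Mgam: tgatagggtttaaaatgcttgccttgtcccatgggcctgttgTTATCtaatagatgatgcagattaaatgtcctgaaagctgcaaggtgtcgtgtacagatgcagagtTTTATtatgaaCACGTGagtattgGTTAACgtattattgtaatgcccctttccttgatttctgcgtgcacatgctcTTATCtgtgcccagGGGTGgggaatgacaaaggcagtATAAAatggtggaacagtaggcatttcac
Sis: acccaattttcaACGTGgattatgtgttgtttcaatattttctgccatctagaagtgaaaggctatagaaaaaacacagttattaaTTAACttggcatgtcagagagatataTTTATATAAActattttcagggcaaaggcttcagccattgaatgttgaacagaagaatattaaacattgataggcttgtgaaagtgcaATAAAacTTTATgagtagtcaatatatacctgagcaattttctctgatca
Mgam held 1 CACCC match at positions −52 to −48, 2 TTTAT, 2 GATAA, and a GTTAAC and a CACGTG that gave 2 matches each. Sis held 4 TTTAT, 1 GTTAA and 1 ACGTG match and neither CACCC nor GATAA. Of the other members, Lct held 2 TTTAT, 3 GATAA and 1 GTTAA match and no CACCC, whereas Treh and Slc2a5 held 1 CACCC match each and none of the other 4 motifs. Slc2a2 held 1 CACCC, 1 GATAA and 1 GTTAA match.

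The transporters that serve the enterocyte beside SGLT1 showed no change that passed. Slc2a5 encodes GLUT5, the apical fructose carrier. It read 7.19, 7.14 and 7.29 in the controls and 7.36, 7.28 and 7.10 in the deleted arrays, with overlapping groups and a difference of 0.04 (95% interval −0.14 to 0.21, adjusted p = 0.807 with limma). Slc2a2 encodes GLUT2, the low-affinity carrier of the basolateral membrane, which liver and pancreatic beta cells also make. It read 7.09, 6.72 and 6.88 in the controls and 6.99, 7.30 and 6.97 in the deleted arrays, with overlapping groups and a difference of 0.19 (SE 0.12, 95% interval −0.08 to 0.46, adjusted p = 0.342). The interval for Slc2a2 runs from 94.3% to 138% of the control signal, and that for Slc2a5 from 90.8% to 116%. The control mean of Slc2a2 (6.90) lay at the 95th percentile of the olfactory receptor genes (6.86), so its interval too bounds the array signal and not the transcript. That of Slc2a5 (7.21) was not far above it, so a change of the Slc2a5 transcript may be understated. In none of 7 measured liver and pancreas markers did limma find a change at an adjusted p of 0.05, nor at an unadjusted p of 0.05 (0 genes). Their mean log2 signal was 7.75 to 8.56 in the deleted arrays and 8.08 to 8.33 in the controls. Among them Alb, the liver gene albumin, read 8.47 in deleted replicate 1 and 12.53 in deleted replicate 2, and 10.85 to 11.81 in the controls. Its part in the Slc2a2 values was not tested.

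The transporters that cells use for their own glucose supply moved in opposite directions. Slc2a1 encodes GLUT1, found in red cells, endothelium and many fetal tissues. It read 12.57, 12.50 and 12.55 in the controls and 12.18, 12.28 and 12.18 in the deleted arrays. All deleted arrays were below all controls, with a gap of 0.22 against a range of 0.07 within the controls. Slc2a1 fell by 0.33 (SE 0.05, n = 3 per group, limma adjusted p = 0.00469), which left 79.8% of the control signal (95% interval 73.6% to 86.4%). Its call was lost with the male share as a covariate (−0.26, SE 0.13, adjusted p = 0.414).

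Slc2a3 encodes GLUT3, the transporter with high affinity that neurons, leukocytes and early embryos use. Its signal was 9.73, 9.83 and 9.70 in control replicates 1 to 3 and 11.32, 10.44 and 11 in the deleted replicates 1 to 3. The deleted arrays were all higher, by a gap of 0.61, but spread over 0.88, against 0.14 in the controls, with replicate 1 highest and replicate 2 lowest. Slc2a3 rose by 1.17 (SE 0.20, n = 3 per group, limma adjusted p = 0.00709), or 2.24 times the control signal (95% interval 163% to 308%), the 16th largest rise of 19938 genes. With the male share as a covariate it was at 1.1 (SE 0.54, adjusted p = 0.402). Within an array, the log2 ratio of Slc2a3 to Slc2a1 was higher in the deleted group by 1.49 (SE 0.30, exact two-sided permutation p = 0.1, no overlap), a pair chosen after the values were seen.

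The sequence upstream of Slc2a1 is shown to set it beside that of Slc5a1, since both transporter genes fell. It lies at chr4:119108495-119108744 on the + strand.
Slc2a1: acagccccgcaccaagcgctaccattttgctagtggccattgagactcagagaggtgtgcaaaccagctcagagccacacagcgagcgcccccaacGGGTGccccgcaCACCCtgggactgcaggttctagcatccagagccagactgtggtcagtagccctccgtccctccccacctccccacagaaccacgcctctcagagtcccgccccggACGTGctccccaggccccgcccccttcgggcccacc
It held 2 CACCC matches, at positions −154 to −150 and −142 to −138, and 1 ACGTG match at −36 to −32, and no match of the CDX, GATA or HNF1 letters. GC content of these stretches was 66.4% for Slc2a1, 60% for Slc5a1, 42.4% for Mgam and 31.6% for Sis.

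**Figure D2:**
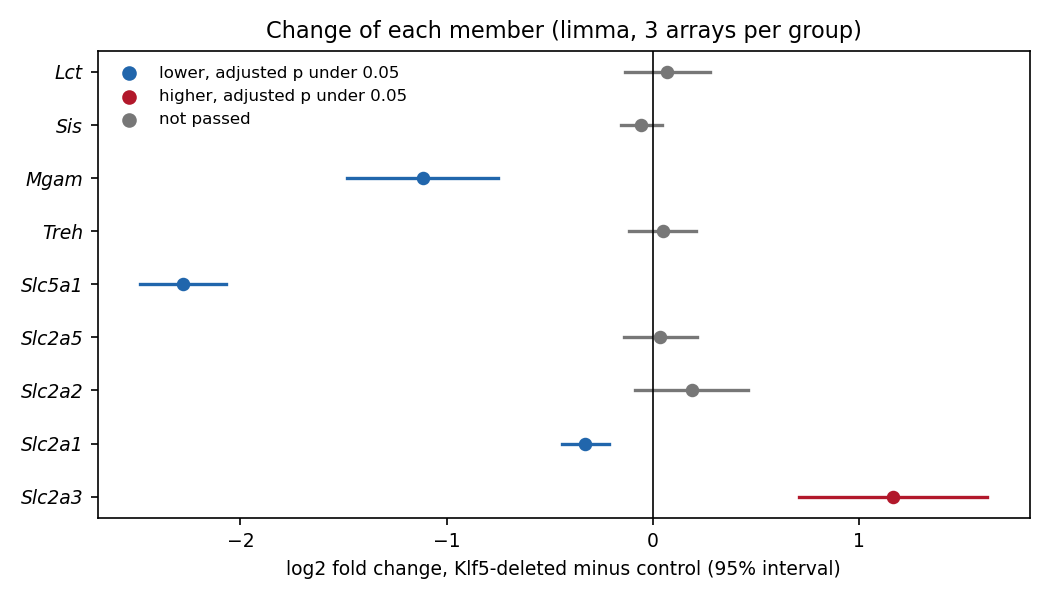
The log2 fold change of each member, Klf5-deleted minus control (horizontal axis), with its 95% interval from limma, coloured by call. The intervals of Slc5a1, Mgam and Slc2a1 lie below 0, that of Slc2a3 lies above 0 and is the widest, from 0.71 to 1.62, and the other 5 include 0.

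The 4 members that passed shared a pattern among the deleted arrays, looked for after the values were seen. Replicate 2 lay nearest to the control mean for 4 of the 4. Over all 3496 genes that passed, replicate 2 was nearest for 35%, replicate 3 for 43.6% and replicate 1 for 21.4%. Klf5 too was nearest to the controls in replicate 2, at 10.49, against 10.24 and 10.34 in replicates 1 and 3. Whether this bears on the pattern was not tested. Without deleted replicate 2 the changes were −2.38 for Slc5a1, −1.32 for Mgam, −0.36 for Slc2a1 and 1.41 for Slc2a3, all past the threshold. Among the controls these 4 genes varied by 0.02 (Mgam) to 0.14 (Slc2a3).

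Markers of other cell types that use glucose transporters were set beside Slc2a3 and Slc2a1. Of all genes, 8.58% were lower and 8.95% higher. Of 8 endothelial markers 0 passed with limma, 1 of them with an unadjusted p under 0.05, and their mean log2 signal was 10.51 to 10.84 in the deleted arrays and 10.53 to 10.60 in the controls. All 8 were nevertheless ordered like Slc2a3 over the deleted arrays, highest in replicate 1 and lowest in replicate 2, an order that 16.8% of all genes had and that was looked for after the values were seen. The largest endothelial change was that of Cldn5, at 0.24, against 1.17 for Slc2a3. Of 8 leukocyte markers 1 fell (Lyz2, by 0.50) and 0 rose, with 1 higher at an unadjusted p under 0.05, and 5 had the order of Slc2a3. Their mean was 8.62 to 8.97 in the deleted arrays and 8.83 to 9.02 in the controls. Of 7 neuronal markers 0 passed (3 higher at an unadjusted p under 0.05), with a mean of 10.12 to 10.37 against 10.10 to 10.20, and 0 had that order. Of 5 mesothelial markers 4 rose and 1 fell, with a mean of 9.80 to 10.14 against 9.28 to 9.66, and 0 had that order. Of 7 red cell markers 2 rose, the embryonic globin genes Hba-x (0.89) and Hbb-y (0.48), and the mean was 9.32 to 10.31 against 9.27 to 9.98. Of 10 mesenchyme and muscle markers 1 rose, the growth factor receptor gene Pdgfra (0.26, SE 0.05, adjusted p = 0.01 with limma), and 0 fell, with 4 higher and 2 lower at an unadjusted p under 0.05. Their mean was 11.88 to 11.98 in the deleted arrays and 11.87 to 11.95 in the controls, and 2 had the order of Slc2a3. The part of these cells in the Slc2a3 and Slc2a1 values was not tested.

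Since epithelial markers fell as a group, each member that passed was also taken relative to them within each array. The mean log2 signal of the 14 general epithelial markers fell by 0.74. Relative to it, Slc5a1 was at −1.54 (SE 0.12, exact two-sided permutation p = 0.1) with no overlap of the groups. Mgam was at −0.38 (SE 0.20, exact permutation p = 0.2), with overlapping groups. Slc2a1 was higher relative to these markers, by 0.41 (SE 0.08, exact permutation p = 0.1), and Slc2a3 by 1.90 (SE 0.31, exact permutation p = 0.1), neither with overlap. The 5 members that did not pass came out higher too, from 0.68 (Sis) to 0.93 (Slc2a2), without overlap. A gene that keeps its signal lies above 0 whenever the markers fall, so a positive value here is not in itself a rise. The mean of the 7 enterocyte markers fell by 1.63. Against that reference Slc5a1 was still lower, at −0.65 (SE 0.11), whereas Mgam turned to 0.52 (SE 0.16), both with exact permutation p = 0.1. The fall of Slc5a1 exceeded that of Mgam within arrays by a log2 difference of −1.16 (SE 0.11, exact two-sided permutation p = 0.1, no overlap), a pair chosen after the values were seen. Both lists hold genes that may themselves depend on KLF5.

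**Figure D3:**
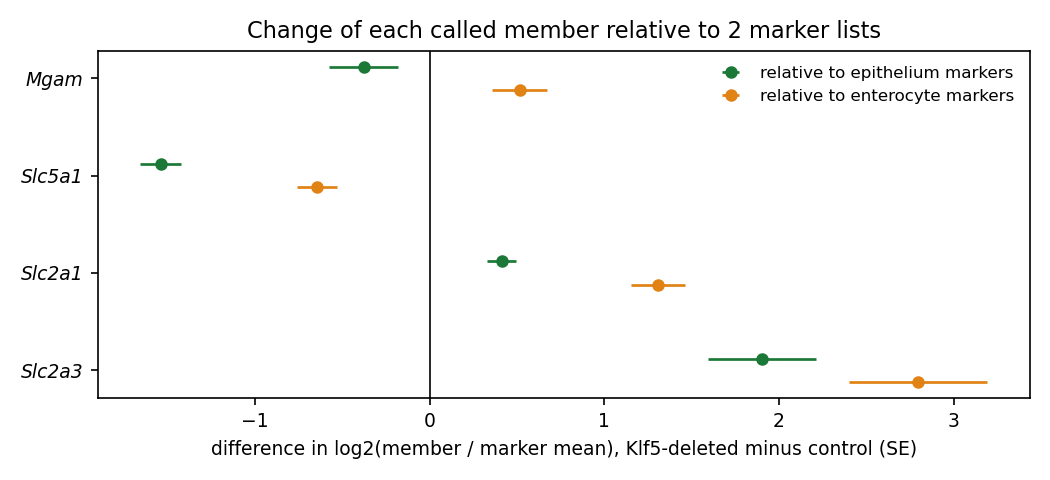
The change of the 4 members that passed, each taken within an array relative to the mean log2 signal of the general epithelial markers (green) or of the enterocyte markers (orange), as Klf5-deleted minus control with its SE. Slc5a1 lies below 0 against both references, at −1.54 and −0.65, and Mgam lies on both sides of 0. Slc2a1 and Slc2a3 lie above 0, where a gene without change would also lie.

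Of 16 other members of the Slc2a, Slc5a and Slc50a families 2 fell and 1 rose, with a median log2 fold change of −0.01, beside 8.58% lower and 8.95% higher over all genes. Slc2a4, the gene of the insulin-responsive transporter GLUT4, rose from 9.62 to 9.73 in the controls to 9.93 to 9.95 in the deleted arrays (0.28, SE 0.05, adjusted p = 0.00748 with limma). Slc2a9, which encodes a urate transporter, fell by 0.22 (SE 0.04) and Slc5a11, an inositol cotransporter gene, fell by 0.29 (SE 0.06). The falls of Slc2a9 and Slc5a11 did not pass with the replicate number as a block (adjusted p = 0.0577 and 0.0634 with limma). With the male share as a covariate 0 of the 16 passed (0 lower and 1 higher at an unadjusted p under 0.05 with limma), Slc2a4 being at 0.21 (adjusted p = 0.481). All log2 fold changes of these 16 genes lay between −0.29 and 0.28.

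Of 6 other glycosidase genes measured, 2 fell and 1 rose, with a median of 0.02, beside 8.58% lower and 8.95% higher over all genes. Glb1, the lysosomal beta-galactosidase gene, fell by 0.55 (SE 0.06, adjusted p = 7.63e-04 with limma). Glb1 lost its call with the male share as a covariate (−0.43, adjusted p = 0.273 with limma). Gba2, a glucosylceramidase gene, rose by 0.19 (SE 0.04) and Gaa, the lysosomal acid alpha-glucosidase gene, fell by 0.17 (SE 0.05). The Gba2 call was kept in 1 of the 6 fits that left out an array and the Gaa call in 0 (adjusted p from 0.0397 to 0.0802 and from 0.0589 to 0.152 with limma). With the arrays centred on their medians neither passed (adjusted p = 0.0673 and 0.0582 with limma).

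Among 11 measured genes of the first steps of hexose use, 4 fell and 0 rose, beside 8.58% lower and 8.95% higher over all genes. With an unadjusted p under 0.05 in limma 0 of the 11 rose as well, and their median was −0.08. Those of the 11 with the smallest p belonged to galactose use and to glucose release. Galm, which converts galactose between its ring forms, fell by 0.74 (SE 0.06, adjusted p = 1.95e-04 with limma). With the male share as a covariate Galm was at −0.89 (adjusted p = 0.0743 with limma), and 0 of the 11 genes passed (4 lower at an unadjusted p under 0.05). Galt, the galactose-1-phosphate uridylyltransferase gene, fell by 0.35 (SE 0.05), and Slc37a4, the glucose-6-phosphate transporter gene of the endoplasmic reticulum, by 0.33 (SE 0.06). The ketohexokinase gene Khk, the first enzyme of fructose use, was at −0.06 (SE 0.06) and did not pass. Among the hexokinase genes, Hkdc1 fell by 0.30 (SE 0.07, adjusted p = 0.0296 with limma), a call kept in 2 of the 6 fits without an array, whereas Hk1 and Hk2 were at −0.08 (SE 0.08) and −0.10 (SE 0.06) and did not pass. Khk and these hexokinase genes were named after their values were seen.

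Of 11 measured genes that sense sugar or set transporter activity, 3 fell and 0 rose, beside 8.58% lower and 8.95% higher over all genes. At an unadjusted p under 0.05 in limma 1 of the 11 was higher, and their median was −0.04. Mlxipl, the gene of the carbohydrate-responsive factor ChREBP, fell by 0.37 (SE 0.07, adjusted p = 0.0118 with limma). Mlxipl lost its call with the male share as a covariate (−0.22, adjusted p = 0.61 with limma). Its relative Mlxip fell by 0.18 (SE 0.05) and the ubiquitin ligase gene Nedd4l by 0.19 (SE 0.05). The Mlxip call was kept in 0 and the Nedd4l call in 1 of the 6 fits without an array. Txnip, which restrains glucose uptake through GLUT1, was at −0.02 (SE 0.07) and did not pass, and was named after its values were seen.

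Of 11 measured transcription factor genes known for acting on promoters of intestinal digestion and absorption genes, 8 fell and 0 rose. With an unadjusted p under 0.05 in limma 0 rose as well, and the median was −0.62. This stands beside 8.58% lower and 8.95% higher over all genes, and a median of −0.81 for the epithelial markers. Hnf4a read 12.06 to 12.14 in the controls and 9.96 to 10.25 in the deleted arrays, and fell by 1.97 (SE 0.08, adjusted p = 1.42e-05 with limma). Its relative Hnf4g fell by 1.95 (SE 0.12) and Gata5 by 1.31 (SE 0.08). The general promoter factors Sp1 and Sp3, named after their values were seen, were at 0.04 (SE 0.04) and 0.06 (SE 0.04) and did not pass. In the fit with the male share as a covariate, 2 of the 8 passed.

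Slc2a1 and Slc2a3 are both known as genes that hypoxia can raise, so other hypoxia-responsive genes were set beside them. Of 13 such genes 7 fell and 0 rose (0 also at an unadjusted p under 0.05 with limma), with a median of −0.21. Ndrg1, a stress-responsive gene that epithelia also use, fell by 2.11 (SE 0.13, adjusted p = 9.44e-05 with limma). Pdk1, whose product restrains the oxidation of pyruvate in mitochondria, fell by 0.67 (SE 0.08), and the glycolytic gene Aldoc by 0.73 (SE 0.10). Ldha, named after its values were seen, was 1 of the 7 and kept its call in 1 of the 6 fits without an array. Its adjusted p in those fits ran from 0.0341 to 0.0751 with limma. With the replicate number as a block (0.0759) and under quantile normalization (0.0658) Ldha did not pass. Of the 13 genes, 6 did not pass in the main fit. Over all genes 8.58% were lower, and the median of the epithelial markers was −0.81. Slc2a1 fell, as did these 7 genes, and Slc2a3 rose. The part of hypoxia in these values was not tested. In the fit with the male share as a covariate 0 of the 13 passed, with 5 lower at an unadjusted p under 0.05.

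**Figure D4:**
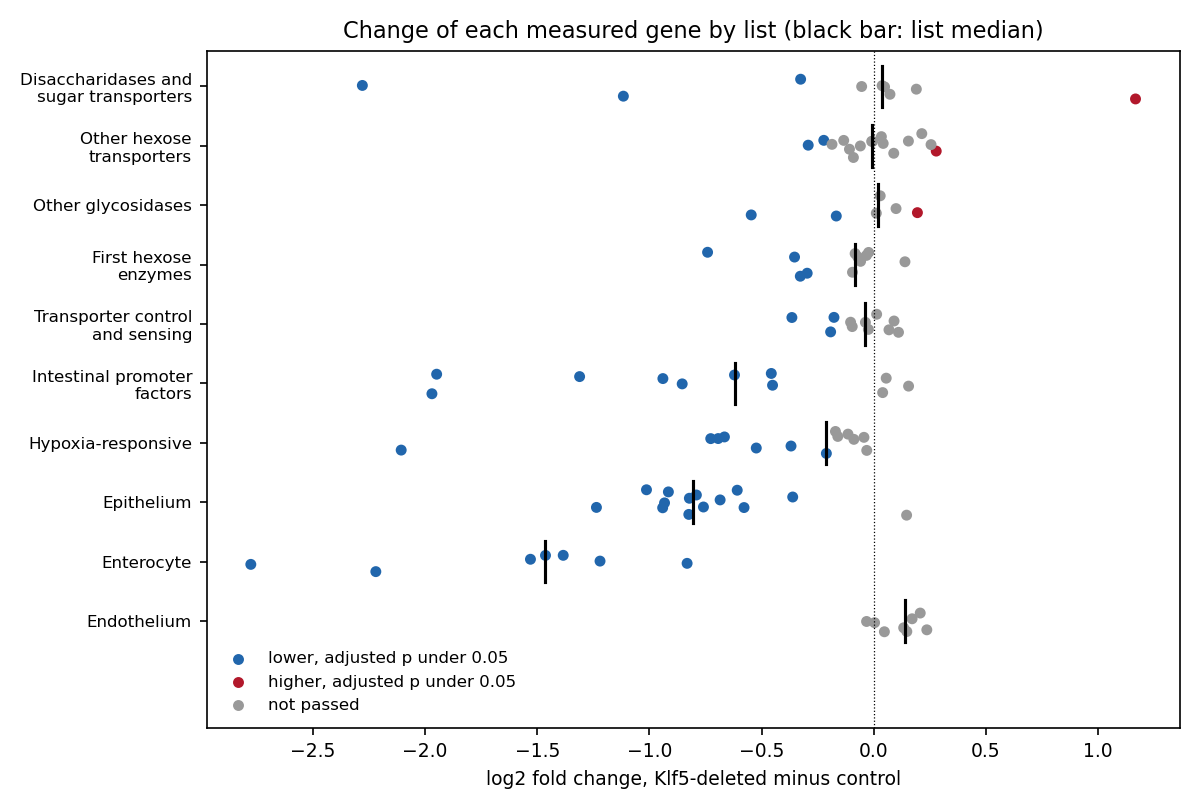
The log2 fold change, Klf5-deleted minus control, of each measured gene of the 9 members, of 6 lists of related genes and of 3 marker lists, coloured by call, with a black bar at each list's median. The members spread from −2.28 to 1.17 around a median of 0.04, while the medians of the promoter factors, the epithelial markers and the enterocyte markers lie at −0.62, −0.81 and −1.46.

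The genes whose pattern over the 6 arrays was most like that of the 2 members with the largest fall and rise were found by the root mean square distance between log2 signals, each taken relative to the gene's own control mean. For Slc5a1 they were Nr1i2, a nuclear receptor gene of xenobiotic response, at a distance of 0.08, Smim24 at 0.10 and Liph, a phospholipase gene, at 0.13. For Slc2a3 they were P4ha3, a collagen prolyl hydroxylase gene, at 0.10, Shisa6 at 0.13 and Emb, the gene of the membrane glycoprotein embigin, at 0.18. The change of these 3 was 1.23 (SE 0.14) for P4ha3, 1.09 (SE 0.16) for Shisa6 and 1.1 (SE 0.11) for Emb. With 6 arrays in 2 groups, this measure mostly finds genes with a change of like size.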

How the data were processed

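The platform was the Affymetrix Mouse Gene ST array. The deposited values are log2 signals. The submitters' processing notes name RMA and Expression Console 1.1 as the authors' software, and the sources used here give no build or array annotation version. RMA makes array distributions alike, so a shift common to most genes is removed. Values ran from 3.51 to 14.3, and array medians from 7.81 to 7.89. Precision is limited by the number of arrays (6).

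The table held 35557 rows, of which platform annotation gave 21789 a single gene symbol, 1621 several and 12147 none. Old symbols were replaced through their gene IDs with those of RefSeq GRCm38.p6 (21698 of the 21789 matched), and the brightest row per gene was kept, giving 19938 genes with no filter on level. Differences (Klf5-deleted minus control) were tested by lmFit and eBayes of limma 3.58.1 (R 4.3.3), p values were adjusted by Benjamini-Hochberg over all genes, and the threshold was 0.05. The fit was tested on simulated data. Other values came from Python 3.11.15, with exact permutation over samples.

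The members, lists and tests were chosen with earlier results of these data known. List genes without a single-symbol row were not analysed here. Named were all members, up to 3 genes per list with the smallest p among those that passed, and 3 genes nearest to the members with the largest fall and rise. Genes outside this rule are marked in the text, and the named markers (Cldn5, Lyz2, Hba-x, Hbb-y, Pdgfra and Alb) were chosen after their values were seen. The labels do not say whether the pools came from separate litters, and p values then reflect only how these pools varied, which may be technical.

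Alternatives were: each array left out, quantile normalization, the replicate number as a block, centring on array medians, the lowest 25% or 50% of genes left out, a variance trend with robust estimation, array weights, the mean of all rows of a gene, the male share of each pool (from Eif2s3y, Kdm5d and Uty) as a covariate, a threshold of 0.1, and enterocyte markers as the reference.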

Additional observations from a re-analysis of the deposited data

How the results depend on the processing

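Leaving out each array in turn kept 3 members lower and 1 higher, with −2.38 to −2.23 for Slc5a1, −1.32 to −1.0 for Mgam, −0.36 to −0.31 for Slc2a1 and 0.97 to 1.41 for Slc2a3. These 4 calls also held under quantile normalization, median centring, the variance trend, array weights and the mean of all rows, and in each filtered fit that kept the gene. With the lowest 50% of genes left out Slc5a1 and the 5 members that did not pass gave no value.

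With the male share as a covariate, 84 genes passed in place of 3496, 1 member was lower and 0 higher (2 and 0 at an unadjusted p under 0.05 with limma), and Mgam (−1.16), Slc2a1 (−0.26) and Slc2a3 (1.1) lost their calls. In that fit the list counts went to 0 lower and 0 higher for the other transporters and for the other glycosidases, 0 lower for the first hexose enzymes (4 unadjusted), transporter control (0 unadjusted) and hypoxia genes (5 unadjusted), and 2 lower for the promoter factors. Genes passing ranged from 2000 (without control replicate 2) to 2757 without an array.

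With the replicate number as a block, 2008 genes passed, and the lists kept 0 lower other transporters (3 unadjusted), 1 lower and 0 higher glycosidase (1 unadjusted) and 1 lower transporter control gene. Of the hypoxia genes 6 were lower with the block. In their deviations from group means, same-numbered samples correlated at −0.14, −0.27 and −0.03, and other pairs at −0.06 to 0.22. So few values cannot settle whether same-numbered pools were paired, and the labels state no pairing. The block changed no member's call.

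Leaving out an array gave 1 to 2 higher other transporters, 1 to 1 lower and 0 to 1 higher glycosidases, and 1 to 2 lower transporter control genes. Members that did not pass changed sign: Lct ran from −0.003 to 0.16 and Slc2a5 from −0.0191 to 0.11 without an array, Slc2a5 was −0.0279 with array weights and −0.042 with the male share, and Sis was 0.0333 with the male share. Against enterocyte markers the relative values were 0.52 for Mgam, −0.65 for Slc5a1, 1.31 for Slc2a1 and 2.80 for Slc2a3, and without an array Slc2a1 ran from 0.36 to 0.48 against epithelial markers.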
